A study of Mus musculus with 10 samples.

Results

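The genes described here encode the voltage-gated sodium channels, the voltage-gated calcium channels and a few channels that set the membrane potential between spikes, together with their auxiliary subunits. They were taken by name, as every gene whose symbol begins with Scn and a digit, Cacna, Cacnb or Cacng, with *Nalcn*, *Unc79*, *Unc80*, *Hcn2*, *Hcn3* and *Hcn4* added. The rule uses symbols and no measured value, although it was written with earlier results of these data known. The mouse annotation holds 46 such genes, and 37 of them are among the 14300 genes of the count table. The other 9, *Scn4a*, *Scn7a*, *Scn10a*, *Scn4b*, *Cacna1f*, *Cacna1s*, *Cacna2d4*, *Cacng1* and *Cacng6*, are not in the table, which holds genes with more than 0.5 CPM (counts scaled to a common library size) in at least 5 libraries, and they were not analysed here. Of the 37 genes, 34 exceeded 0.5 CPM in all 10 libraries. *Cacng5* exceeded it in 3 of the 5 TdTomato+ libraries. *Scn11a* did so in 0 of them, so it could enter the table through its TdTomato− libraries alone, which fixed its direction.

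Voltage-gated sodium and calcium channels are single long proteins, the alpha subunits, that fold into a pore with voltage sensors and open when the membrane is depolarized. Sodium channels carry the upstroke of the action potential, and calcium channels turn it into calcium entry that drives transmitter release, growth cone movement and gene expression. Their auxiliary subunits bring the pore to the surface and tune its gating. In the embryonic cortex these currents appear as newborn neurons leave the ventricular zone, and calcium entry is known to influence their migration and axon growth.

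The cells came from embryos of *Grem1creERT; Rosa26LSLTdtomato* mice (strain c57bl/6j), collected 24 h after the pregnant dams had received tamoxifen. In these mice a tamoxifen-inducible Cre driven by *Grem1* regulatory sequences switches on the red reporter TdTomato, which labels a cell permanently and is inherited by its daughters. Live cells were sorted into TdTomato+ and TdTomato− fractions, and mRNA of both fractions was sequenced from each of 5 mouse numbers, 2 to 6, all of the same genotype and treatment. The methods of the study give the tissue as dorsal telencephalon with the meninges removed, whereas the labels name brain cells, and both fractions are mixtures whose cells were not separated further. In such bulk libraries fewer cells of a type and less RNA per cell cannot be told apart.

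The libraries held 23429034 to 27286180 counts each. *Grem1* itself, the gene behind the sort, averaged 63.3 CPM in the positive and 6.11 CPM in the negative libraries. The TdTomato+ fraction was higher in 8 of 9 cortical projection neuron markers and in 14 of 18 pan-neuronal markers and was lower in all 12 progenitor markers, all 10 GABAergic interneuron markers and all 6 Cajal-Retzius markers. The summed pan-neuronal markers lay between 19307 and 20782 CPM in TdTomato+ and between 9791 and 11051 CPM in TdTomato− libraries, the progenitor markers between 161 and 246 CPM against 3143 and 3756 CPM, and the GABAergic markers between 51.6 and 74.7 CPM against 1440 and 1793 CPM. The part of these marker differences in the results on single channel genes was not tested.

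Of the 37 channel genes, 26 were higher and 7 were lower in TdTomato+ than in TdTomato− cells at an adjusted p of 0.05 or less (edgeR's quasi-likelihood test with mouse as a block and Benjamini-Hochberg adjustment over 14300 genes). *Scn11a* is 1 of the 7 lower genes, and its direction had been fixed by the filter. By the same test 37.9% of all genes were higher and 39.4% were lower. The median log2 fold change of the 37 genes was 0.88, beside −0.01 for all genes and 0.86 for the pan-neuronal markers. All 8 measured calcium channel alpha1 genes, all 3 measured sodium channel beta genes and 3 of 4 calcium channel beta genes were higher. The sodium channel alpha genes were split, with 3 higher, 3 lower and 1 that did not pass the test. Pore-forming and auxiliary genes had similar counts, 13 higher and 4 lower of 19 against 13 higher and 3 lower of 18.

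The study's second threshold, an absolute log2 fold change of 2 or more, was passed by 5 channel genes that were higher (*Cacna1e*, *Cacna1d*, *Scn2a* and *Cacna1i* among them) and 2 that were lower (*Cacng5* among them). Over all genes 3.2% passed both thresholds as higher and 9.74% as lower. The ranges of the 5 TdTomato+ and the 5 TdTomato− libraries did not overlap for 31 of the 37 channel genes, 26 higher and 5 lower with *Scn11a* among the latter, whereas 61.6% of all genes had non-overlapping ranges and 29.1% did so as higher. The 6 with overlapping ranges were *Scn9a*, *Scn1a*, *Cacna2d3*, *Cacnb2*, *Nalcn* and *Hcn2*.

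**Figure D1:**
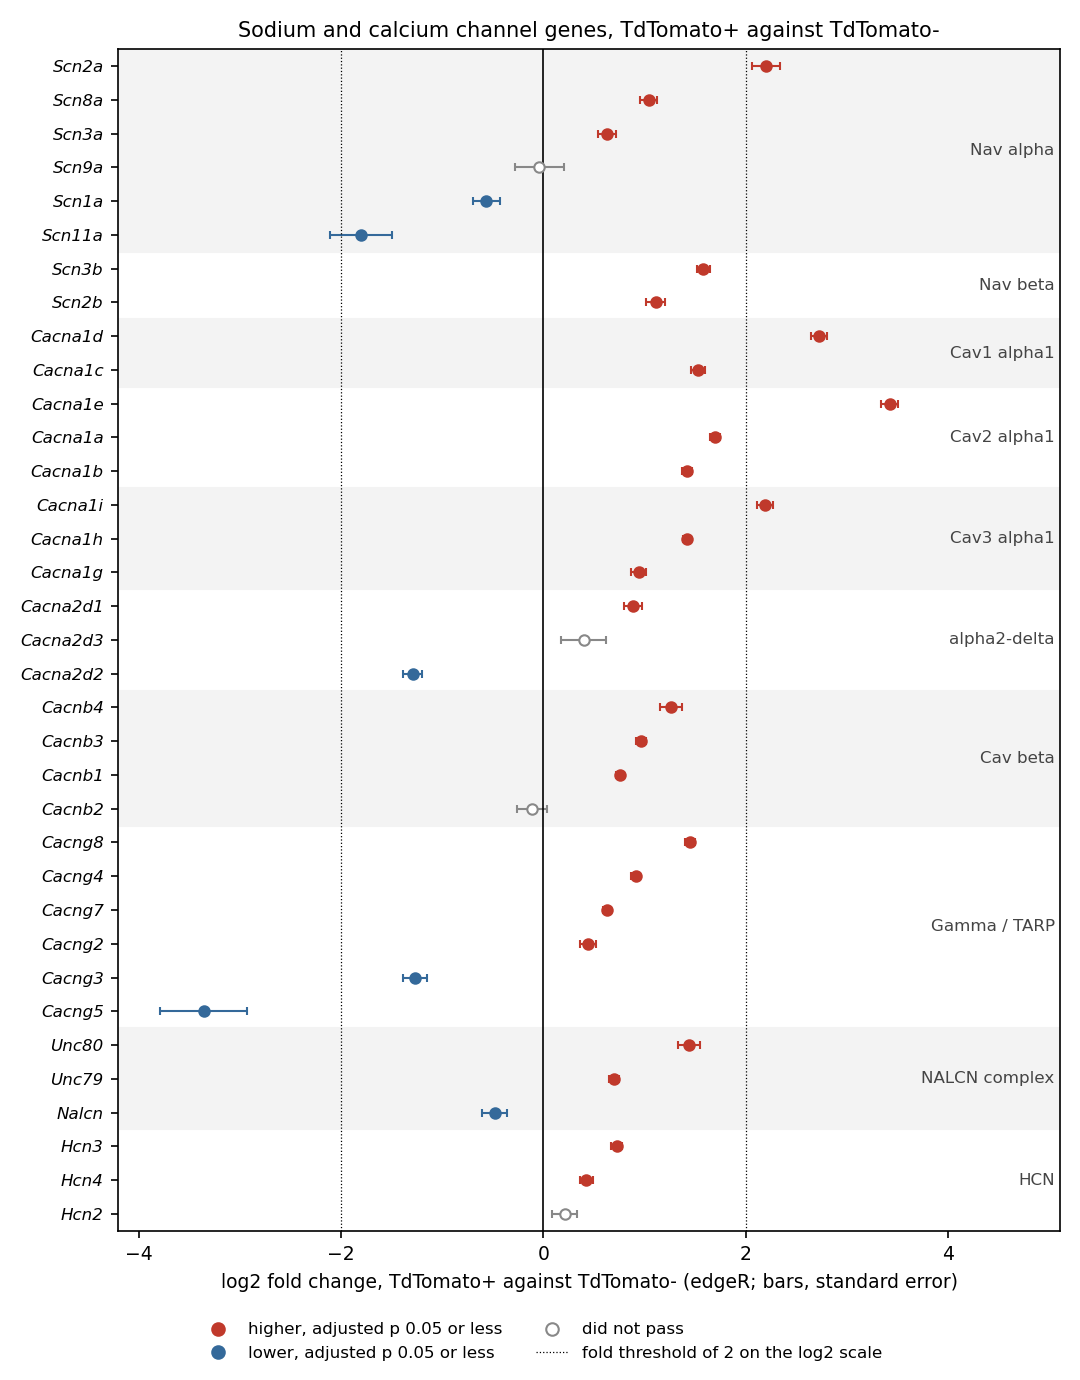
Log2 fold change of the channel genes whose values are given here between TdTomato+ and TdTomato− cells on the x axis, grouped by subunit family on the y axis. Points are edgeR estimates, bars are standard errors, filled points passed the adjusted p of 0.05 and dotted lines mark the fold threshold of 2. *Cacna1e* at 3.42 and *Cacng5* at −3.35 are the ends of the range.

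The sodium channel alpha genes moved in both directions. *Scn2a*, the principal sodium channel of developing excitatory axons, had the largest increase of the family. In the TdTomato+ libraries of mice 2 to 6 its level was 129, 78.0, 70.8, 123 and 105 CPM, and in the TdTomato− libraries it was 23.3, 19.4, 24.7, 21.0 and 19.8 CPM. Every TdTomato+ library stood above every TdTomato− library, and the TdTomato+ libraries of mice 3 and 4 were the lowest of their group. The log2 fold change was 2.20 (SE 0.14), a 4.58-fold difference (adjusted p = 7.36e-07, edgeR).

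*Scn8a*, the sodium channel of mature axon initial segments and nodes, had the highest mean of the alpha genes in TdTomato+ cells per kilobase of exon, at 11.4 ± 0.889 CPM beside 10.2 ± 1.15 CPM for *Scn3a*, which stood above it in mouse 5. It was 194, 169, 192, 162 and 182 CPM in the TdTomato+ and 122, 84.5, 77.0, 77.4 and 82.2 CPM in the TdTomato− libraries of mice 2 to 6, without overlap, and its log2 fold change was 1.04 (SE 0.08, edgeR adjusted p = 3.01e-06). *Scn3a*, the channel known for its high level before birth, was 116 to 147 CPM against 64.4 to 100 CPM. Its log2 fold change of 0.63 (SE 0.09, edgeR adjusted p = 0.000153) was below that of *Scn2a* and *Scn8a*.

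*Scn1a*, which is best known from inhibitory interneurons, was lower in TdTomato+ cells. Its level in mice 2 to 6 was 13.2, 7.24, 8.61, 12.2 and 8.81 CPM in TdTomato+ and 21.5, 14.3, 14.6, 11.97 and 11.8 CPM in TdTomato− libraries. The groups overlapped, and in mouse 5 the TdTomato+ library was slightly the higher of the pair, so the fall held in 4 of 5 mice (log2 fold change −0.57, SE 0.13, edgeR adjusted p = 0.00391). The GABAergic marker sum was 1440 to 1793 CPM in the TdTomato− libraries, and its part in the level of *Scn1a* was not tested.

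*Scn9a*, a channel of pain-sensing neurons that is also found in the hypothalamus, did not pass the test (log2 fold change −0.04, SE 0.24, edgeR adjusted p = 0.883). Its TdTomato+ libraries were 8.43, 5.59, 4.86, 8.61 and 5.83 CPM and its TdTomato− libraries 9.73, 7.22, 9.70, 4.75 and 3.90 CPM. The direction differed between mice, with TdTomato+ lower in mice 2, 3 and 4 and higher in mice 5 and 6.

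*Scn11a*, a channel of nociceptors, had the lowest level of the channel genes. Its counts were 1, 11, 10, 7 and 7 in TdTomato+ and 17, 54, 38, 13 and 30 in TdTomato− libraries of mice 2 to 6, highest in mice 3 and 4 in both fractions. The means were 0.317 ± 0.170 and 1.12 ± 0.570 CPM (SD, n = 5), given without a test since the filter had fixed the direction. It lies at chr9:119753759-119825456 (GRCm38, minus strand).

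In the TdTomato− libraries, the sum of the Cajal-Retzius markers was likewise highest in mice 3 and 4, at 349 and 397 CPM, with 217 to 283 CPM in mice 2, 5 and 6. The sum of the 2 measured meningeal markers was also highest there, at 2.90 and 5.29 CPM, with 1.88 to 2.50 CPM in the others. Of these 2 genes *Col1a2* had that pattern, at 2.00 and 4.65 CPM with 0.782 to 1.51 CPM in the others. *Dcn* did not, at 0.899 and 0.642 CPM with 0.558 to 1.09 CPM in the others. The part of the Cajal-Retzius or meningeal cells in the level of *Scn11a* was not tested.

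The alpha genes of chromosome 2 lie in a cluster and did not move together. On GRCm38, *Scn3a* (chr2:65457118-65567627, minus strand) and *Scn2a* (chr2:65620771-65767447, plus strand) were higher, *Scn1a* (chr2:66270778-66440840) was lower and *Scn9a* (chr2:66480080-66634962) did not pass the test.

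Expressed as a share of the summed sodium channel alpha level per kilobase of exon, *Scn2a* made up 25.2% ± 4.22 (SD, n = 5) of the TdTomato+ and 10.1% ± 1.35 of the TdTomato− sum. *Scn3a* made up 32.8% ± 1.28 and 39.1% ± 1.73, and *Scn8a* 36.9% ± 4.49 and 33.2% ± 4.26. The shares of *Scn2a* lay at 19.5% to 29.4% with the reporter, at 8.62% to 11.5% without it, and did not overlap, nor did those of *Scn3a* (30.8% to 34.2% against 36.5% to 41.1%), whereas those of *Scn8a* overlapped (31.2% to 42.8% against 27.3% to 37.0%). The ratio of *Scn2a* to *Scn3a* within a library was 0.772 ± 0.139 in TdTomato+ and 0.260 ± 0.0364 in TdTomato− cells. These shares are descriptions of chosen genes and carry no test.

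The sodium channel beta genes encode single-pass proteins that modulate gating and act in cell adhesion, and all 3 measured members were higher in TdTomato+ cells. *Scn3b*, an abundant beta gene of the embryonic brain, had the highest level, at 276, 214, 216, 258 and 241 CPM in the TdTomato+ and 82.0, 72.6, 87.1, 78.4 and 82.1 CPM in the TdTomato− libraries of mice 2 to 6. The groups lay far apart relative to the spread within them (log2 fold change 1.58, SE 0.06, edgeR adjusted p = 4.04e-08). *Scn2b*, whose product is linked to the alpha subunit by a disulfide bond, was 16.0 to 17.2 CPM against 6.66 to 9.14 CPM (log2 fold change 1.11, SE 0.09, edgeR adjusted p = 5.00e-06). *Scn3b* was 87.3% ± 1.07 of the summed beta level per kilobase in TdTomato+ and 87.3% ± 1.61 in TdTomato− cells, so the make-up of this family was led by the same gene in both.

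**Figure D2:**
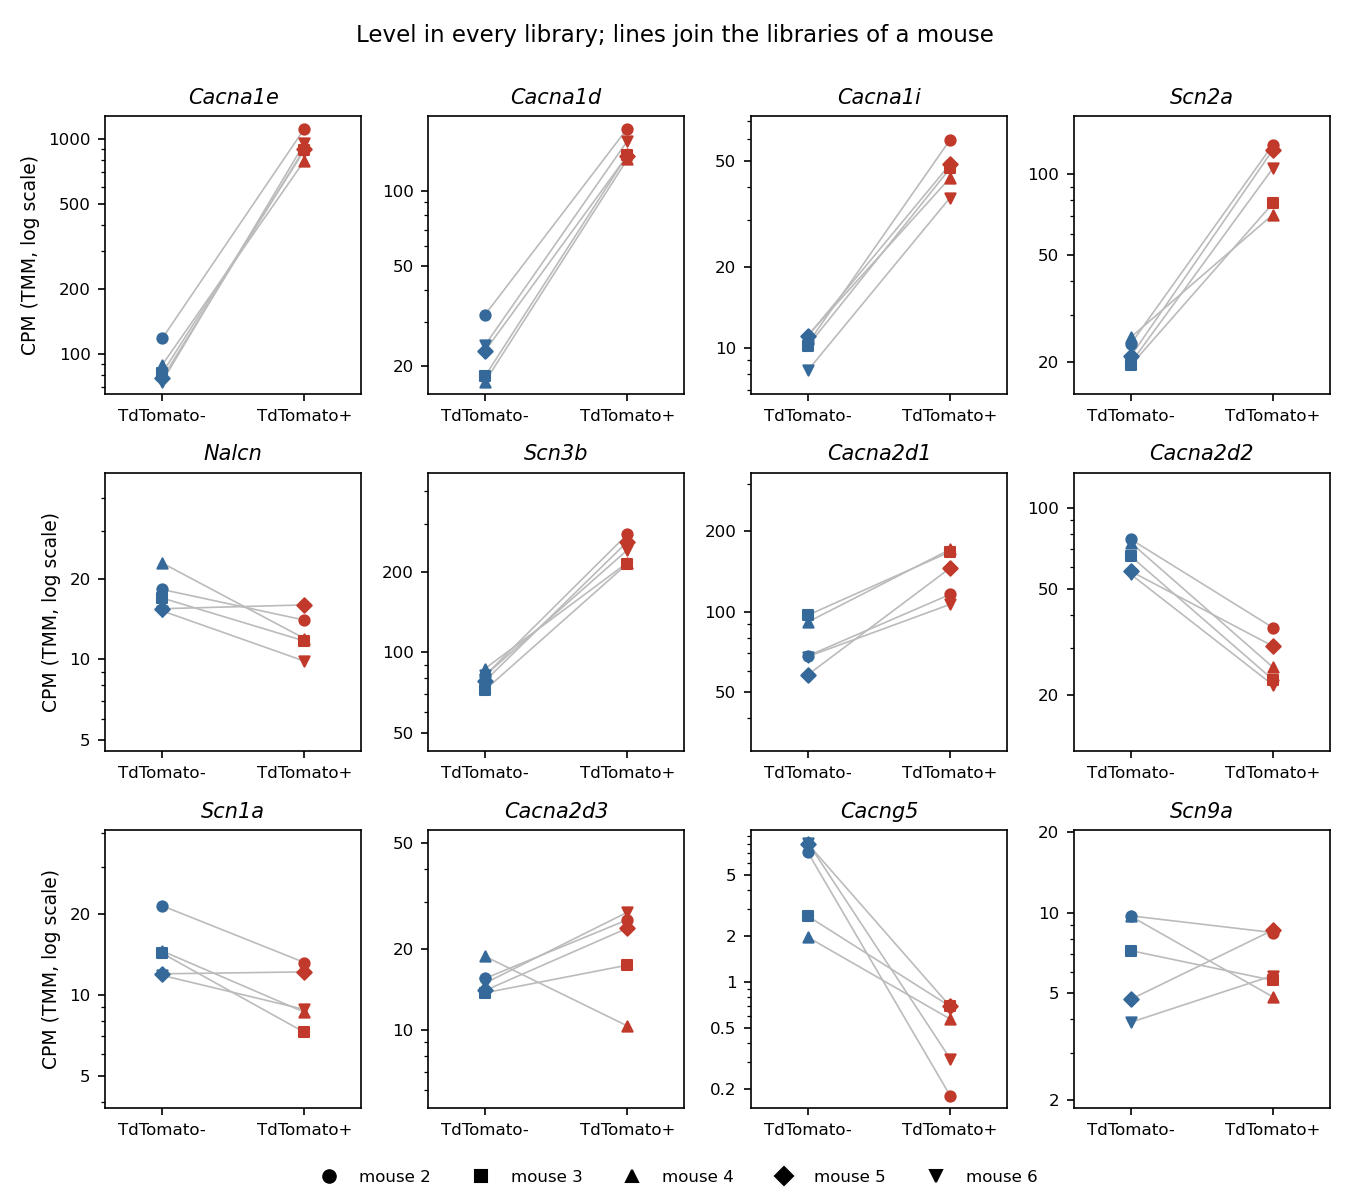
Level of 12 channel genes in every library in TMM-scaled CPM on a log y axis, TdTomato− on the left and TdTomato+ on the right of each panel, with a symbol for each of the 5 mice and a line joining the libraries of a mouse. *Cacna1e* rose from 74.3 to 118 CPM in TdTomato− to 794.3 to 1119 CPM in TdTomato+ libraries, *Cacng5* fell in every mouse, and the lines of *Scn9a* cross.

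The calcium channel alpha1 genes form the L-type (Cav1), the P/Q-, N- and R-type (Cav2) and the low-threshold T-type (Cav3) classes. All 8 genes of the table rose, with log2 fold changes from 0.94 to 3.42 and a median of 1.61. The increase was seen in 5 of 5 mice for each of them, and for none did the groups overlap.

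*Cacna1e*, which encodes the R-type channel, had the largest change of all 37 channel genes. Its level in the TdTomato+ libraries of mice 2 to 6 was 1119, 888.4, 794.3, 902.2 and 956.5 CPM, and in the TdTomato− libraries 118, 81.3, 88.8, 76.8 and 74.3 CPM. Mouse 2 was the highest in both fractions, and the lowest TdTomato+ library was far above the highest TdTomato− library. The mean rose from 87.8 ± 17.7 to 932 ± 120 CPM (SD, n = 5), a log2 fold change of 3.42 (SE 0.08) or 10.7-fold (edgeR adjusted p = 2.41e-09). At 17990 to 24687 counts in the TdTomato+ libraries, this gene (chr1:154390731-154884501, minus strand, GRCm38) was among the most deeply counted of the set.

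*Cacna1a*, the P/Q-type channel of presynaptic terminals, and *Cacna1b*, the N-type channel known for its part in neuronal migration and early transmitter release, rose less. *Cacna1a* was 122 to 177 CPM in TdTomato+ and 36.1 to 60.9 CPM in TdTomato− libraries (log2 fold change 1.70, SE 0.05, edgeR adjusted p = 7.37e-09). *Cacna1b* was 202 to 247 CPM against 71.6 to 104 CPM (log2 fold change 1.42, SE 0.05, edgeR adjusted p = 1.21e-08). Per kilobase, *Cacna1b* stood above *Cacna1e* in TdTomato− cells and below it in TdTomato+ cells. The per-kilobase ratio of *Cacna1e* to *Cacna1b* was 0.431 ± 0.0178 in TdTomato− and 1.73 ± 0.135 in TdTomato+ libraries, with ranges of 0.405 to 0.447 and 1.51 to 1.87. Without division by exon length *Cacna1e* was above *Cacna1b* in every library of both fractions, with TdTomato− means of 87.8 and 80.0 CPM.

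Both measured L-type genes rose. *Cacna1d*, which encodes the L-type channel that opens at lower voltages, was 177, 139, 133, 138 and 158 CPM in the TdTomato+ and 32.0, 18.2, 17.3, 23.0 and 24.2 CPM in the TdTomato− libraries of mice 2 to 6. Mouse 2 was highest and mouse 4 lowest in both fractions (log2 fold change 2.72, SE 0.08, edgeR adjusted p = 5.66e-09). *Cacna1c*, the major L-type channel of brain and heart and the route of calcium to the nucleus in many neurons, was 233, 212, 211, 206 and 223 CPM against 96.7, 68.3, 60.5, 75.4 and 79.9 CPM (log2 fold change 1.53, SE 0.07, edgeR adjusted p = 1.00e-07). Per kilobase *Cacna1c* was above *Cacna1d* in TdTomato− cells, at 3.59 ± 0.644 against 1.82 ± 0.465 CPM, whereas in TdTomato+ cells they were 10.2 ± 0.512 and 11.8 ± 1.45 CPM. Without division by exon length *Cacna1c* was above *Cacna1d* in both fractions, with TdTomato+ means of 217 and 149 CPM.

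The T-type channels open near rest and give low-threshold calcium spikes. *Cacna1h* had the highest mean level per kilobase of the alpha1 genes in both fractions, although *Cacna1e* stood above it in the TdTomato+ library of mouse 3 and, without division by exon length, in the mean TdTomato+ share. In mice 2 to 6 *Cacna1h* was 456, 341, 379, 377 and 408 CPM in TdTomato+ and 173, 137, 144, 136 and 145 CPM in TdTomato− libraries. No library of either group came near the other group (log2 fold change 1.42, SE 0.04, edgeR adjusted p = 5.65e-09). *Cacna1i*, the T-type channel best known from the thalamus, rose most of the class, with 59.7, 46.8, 43.1, 48.4 and 36.3 CPM in TdTomato+ and 10.4, 10.2, 11.2, 11.1 and 8.26 CPM in TdTomato− libraries (log2 fold change 2.19, SE 0.08, edgeR adjusted p = 2.10e-08). *Cacna1g*, the T-type channel of thalamic relay neurons, was 119 to 146 CPM against 51.1 to 93.8 CPM (log2 fold change 0.94, SE 0.07, edgeR adjusted p = 3.08e-06).

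The class make-up differed along with the levels. The summed alpha1 level per kilobase was 151 ± 15.3 CPM with the reporter and 43.6 ± 6.80 CPM without it, a ratio of 3.45. Cav2 genes held 47.3% ± 0.796 of that sum in TdTomato+ and 35.5% ± 1.95 in TdTomato− libraries, and Cav3 genes 38.1% ± 0.908 and 52.1% ± 1.17, without overlap in either case. Cav1 genes held 14.7% ± 0.441 and 12.4% ± 1.48. *Cacna1e* alone went from 7.95% ± 0.560 to 24.5% ± 1.30, while *Cacna1h* went from 34.7% ± 1.66 to 26.7% ± 1.10 although its own level rose. Without division by exon length the TdTomato− and TdTomato+ shares were 16.3% and 41.9% for *Cacna1e* and 27.6% and 17.6% for *Cacna1h*.

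**Figure D3:**
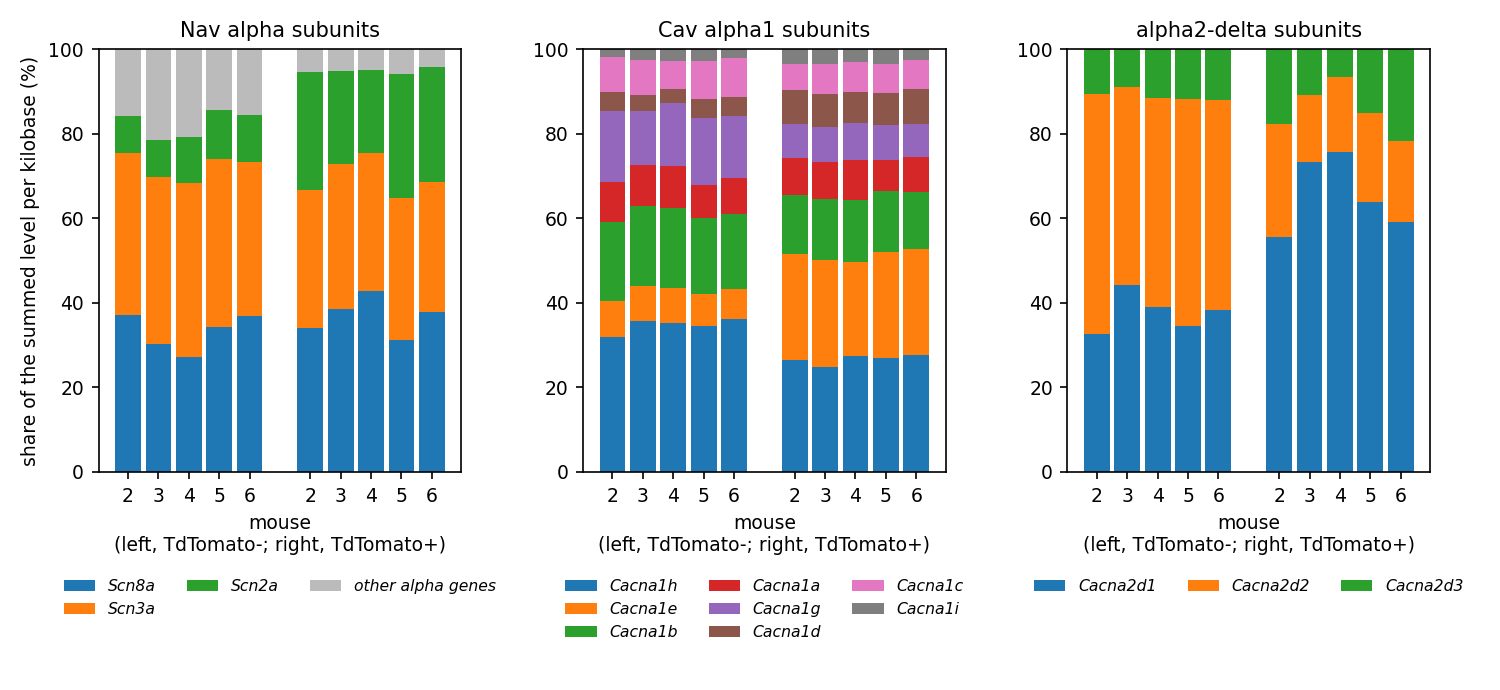
Share of each gene (% on the y axis, stacked colours) in the summed level per kilobase of the sodium channel alpha, calcium channel alpha1 and alpha2-delta genes, for each mouse number on the x axis, TdTomato− on the left and TdTomato+ on the right of each panel. The grey band in the left panel is the sum of the other sodium channel alpha genes. The orange band of *Cacna1e* in the middle panel widens from 7.16% to 8.41% in TdTomato− to 22.2% to 25.1% in TdTomato+ libraries.

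Promoter sequence is shown for the channel genes with the strongest increase and decrease to give the letters around their start sites. RefSeq windows on GRCm38.p6, from 250 bases before to 50 bases after an annotated start, were found for 28 of the 37 genes, in 39 windows of 300 bases. The CG dinucleotide, the site of DNA methylation, is in capitals. It occurred at a median of 11 per window in channel genes and 7 over all 32851 windows, and the channel genes ranged from 2 to 63. The windows below are those of *Cacna1e* (chr1:154725871-154726170, minus strand, 11 CG), of a CG-rich start of *Cacna1d* (chr14:30353437-30353736, minus strand, 63 CG) and of the upstream start of *Cacng5* (chr11:107915006-107915305, minus strand, 17 CG), each 5′ to 3′. The printed *Cacna1e* and *Cacna1d* windows lie inside the span that the gene annotation gives to each gene, not at its 5′ end. *Cacna1d* has a further window near its 5′ end (chr14:30491107-30491406, minus strand, 4 CG). *Cacng5* has a further, downstream window (chr11:107911313-107911612, minus strand, 5 CG). Neither of these is printed.
Cacna1e: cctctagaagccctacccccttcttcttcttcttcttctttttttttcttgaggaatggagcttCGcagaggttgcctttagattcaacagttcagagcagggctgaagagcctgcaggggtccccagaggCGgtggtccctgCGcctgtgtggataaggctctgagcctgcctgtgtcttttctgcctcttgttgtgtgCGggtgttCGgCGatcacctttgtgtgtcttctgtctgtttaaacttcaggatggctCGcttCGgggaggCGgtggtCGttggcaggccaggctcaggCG
Cacna1d: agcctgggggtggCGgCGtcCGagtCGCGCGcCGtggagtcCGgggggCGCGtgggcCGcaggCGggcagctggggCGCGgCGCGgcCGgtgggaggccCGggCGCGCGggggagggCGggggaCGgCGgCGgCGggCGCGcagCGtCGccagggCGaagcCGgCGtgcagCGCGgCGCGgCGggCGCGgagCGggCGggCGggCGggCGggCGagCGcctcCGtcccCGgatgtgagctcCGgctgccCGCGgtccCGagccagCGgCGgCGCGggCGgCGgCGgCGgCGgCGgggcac
Cacng5: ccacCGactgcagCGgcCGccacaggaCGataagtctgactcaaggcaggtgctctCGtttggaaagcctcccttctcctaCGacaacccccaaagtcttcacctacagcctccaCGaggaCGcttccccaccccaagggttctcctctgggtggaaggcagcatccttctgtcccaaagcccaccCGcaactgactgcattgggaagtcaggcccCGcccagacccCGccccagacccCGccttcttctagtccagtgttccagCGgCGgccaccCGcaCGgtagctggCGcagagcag
The E-box letters CAGCTG, which read the same on both strands, were in 12 of the 39 channel windows (30.8%) and in 16.3% of all windows. They were in 6 of 27 windows of higher genes and in 3 of 7 windows of lower genes, and some genes have several windows. The E-box letters CAGATG or their reverse complement were in 4 (10.3%) against 17.2%, and TATAAA on either strand was in 2 (5.13%) against 13.6%. These are matches of letters and no measurement of binding or methylation.

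The alpha2-delta subunits, extracellular proteins that carry calcium channels to the surface and take part in synapse formation, moved in opposite directions. *Cacna2d1*, a target of gabapentin, was 116, 167, 171, 145 and 106 CPM in the TdTomato+ and 68.5, 97.1, 91.5, 58.2 and 68.0 CPM in the TdTomato− libraries of mice 2 to 6. The highest values of each fraction were in mice 3 and 4, and the groups did not overlap (log2 fold change 0.88, SE 0.09, edgeR adjusted p = 1.44e-05). *Cacna2d2*, the other gabapentin-binding subunit, was 35.8, 22.9, 25.5, 30.5 and 21.9 CPM against 76.4, 66.1, 74.3, 58.0 and 56.6 CPM. It was lower in each mouse (log2 fold change −1.29, SE 0.09, edgeR adjusted p = 1.72e-06).

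*Cacna2d3*, a subunit with a known part in synapse number and hearing, did not pass the test (log2 fold change 0.40, SE 0.22, edgeR adjusted p = 0.129). It was 25.8, 17.5, 10.4, 24.0 and 27.5 CPM in TdTomato+ and 15.6, 13.8, 18.9, 14.1 and 15.0 CPM in TdTomato− libraries. Mouse 4 alone had the lower value in TdTomato+ cells, and without mouse 4 the log2 fold change was 0.68 (edgeR adjusted p = 0.000184). *Cacna2d1* held 65.6% ± 8.77 of the summed alpha2-delta level per kilobase in TdTomato+ and 37.7% ± 4.48 in TdTomato− libraries, and *Cacna2d2* 20.03% ± 4.25 and 51.3% ± 3.91. The sum itself was 17.2 ± 1.66 and 16.3 ± 2.25 CPM per kilobase with overlapping ranges, a ratio of 1.06. The GABAergic markers were all lower in TdTomato+ cells beside *Cacna2d2*, and their part in its level was not tested.

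The calcium channel beta genes encode cytoplasmic subunits that bind the loop between the first and second repeats of the pore and raise its surface level. *Cacnb3* was the most abundant in both fractions, at 446, 372, 374, 392.3 and 413 CPM in TdTomato+ and 203, 195, 212, 198 and 216 CPM in TdTomato− libraries. The groups did not overlap (log2 fold change 0.96, SE 0.05, edgeR adjusted p = 1.47e-07). *Cacnb4*, the beta subunit mutated in the lethargic mouse, had the largest increase, with 52.1, 62.1, 56.7, 61.7 and 58.2 CPM against 32.2, 25.3, 22.9, 22.8 and 19.5 CPM (log2 fold change 1.26, SE 0.11, edgeR adjusted p = 7.08e-06). *Cacnb1*, the beta subunit of skeletal muscle that is also made in brain, was 125 to 139 CPM against 74.8 to 82.0 CPM (log2 fold change 0.75, SE 0.04, edgeR adjusted p = 1.72e-07).

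*Cacnb2*, the main beta subunit of the heart, did not pass the test, at 5.62, 5.59, 5.47, 7.35 and 4.43 CPM in TdTomato+ and 7.08, 7.60, 5.37, 5.15 and 5.58 CPM in TdTomato− libraries (log2 fold change −0.11, SE 0.15, edgeR adjusted p = 0.502). *Cacnb3* held 73.2% ± 1.42 of the summed beta level per kilobase in TdTomato+ and 71.2% ± 0.769 in TdTomato− cells. Exons of other genes on the opposite strand overlap 16.0% of the exon length of *Cacnb4* and 7.32% of that of *Cacnb2*, and likewise 5.86% for *Cacng2*, 4.67% for *Cacna1d* and 3.81% for *Cacna1a*. Since the strand setting of the counting is not given in the sources used here, these counts are less certain.

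The gamma genes are named for a skeletal muscle calcium channel subunit, but most of those in brain encode TARPs, proteins that traffic AMPA receptors and set their gating. Of the 6 measured genes, 4 were higher and 2 were lower. *Cacng7*, the most abundant per kilobase in both fractions, was 299, 279, 281, 274 and 306 CPM in TdTomato+ and 189, 179, 172, 190 and 199 CPM in TdTomato− libraries (log2 fold change 0.63, SE 0.04, edgeR adjusted p = 5.72e-07). *Cacng4*, a TARP prominent in the embryonic brain, was 382 to 433 CPM against 190 to 228 CPM (log2 fold change 0.91, SE 0.04, edgeR adjusted p = 7.06e-08). Neither overlapped between groups.

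*Cacng8*, the main hippocampal TARP, had the largest increase of the family, with 71.2, 67.0, 64.0, 60.7 and 62.1 CPM in TdTomato+ and 24.6, 23.5, 23.4, 22.4 and 24.8 CPM in TdTomato− libraries (log2 fold change 1.45, SE 0.05, edgeR adjusted p = 1.33e-08). It lies beside *Cacng7* on chromosome 7 (chr7:3390683-3415648 and chr7:3332955-3368221, plus strand, GRCm38). Exons of other genes on the same strand overlap 3.88% of the exon length of *Cacng8*, so its counts are less certain under any strand setting. *Cacng2*, which encodes stargazin, was 32.9 to 47.8 CPM against 29.8 to 32.1 CPM (log2 fold change 0.44, SE 0.08, edgeR adjusted p = 0.000691). *Cacng3*, the TARP closest to stargazin in sequence and a gene of the mature cortex, was lower, at 2.03 to 3.08 CPM against 4.596 to 7.25 CPM (log2 fold change −1.27, SE 0.12, edgeR adjusted p = 8.75e-06).

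*Cacng5*, an atypical TARP, had the largest fall of the 37 channel genes. Its counts in mice 2 to 6 were 4, 16, 13, 16 and 7 in TdTomato+ libraries, or 0.181, 0.694, 0.574, 0.696 and 0.316 CPM, and 180, 78, 49, 202 and 234 in TdTomato− libraries, or 7.04, 2.70, 1.97, 8.004 and 8.15 CPM. The TdTomato− libraries of mice 3 and 4 were the lowest of their group, yet stood above every TdTomato+ library. The log2 fold change was −3.35 (SE 0.43), a level 10.2-fold higher in TdTomato− cells (edgeR adjusted p = 8.10e-05). Its neighbour *Cacng4* (chr11:107732357-107794557, GRCm38, with *Cacng5* at chr11:107874605-107915055, both minus strand) moved the other way.

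The microglia markers of the TdTomato− libraries also had their lowest sums in mice 3 and 4, at 15.2 and 20.1 CPM, with 53.3 to 68.9 CPM in mice 2, 5 and 6. In the TdTomato+ libraries 7 of 7 measured microglia markers were lower, with sums of 0.771 to 1.76 CPM. The filter had fixed that direction for each of them except *Csf1r*. The GABAergic (1440 and 1443 CPM, others 1462 to 1793), oligodendrocyte precursor (43.0 and 45.1 CPM, others 55.4 to 64.3) and erythroid (74.2 and 103 CPM, others 109 to 258) sums of the TdTomato− libraries were also lowest in mice 3 and 4. The GABAergic genes differed: *Dlx1*, *Dlx2*, *Dlx5*, *Lhx6* and *Npy* were lowest in mice 3 and 4. *Gad1*, *Gad2*, *Dlx6* and *Slc32a1* were lowest in mouse 6, where the GABAergic sum was 1462 CPM and *Cacng5* was highest. *Sst* was highest in mice 3 and 4. The part of any of these cell types in the level of *Cacng5* was not tested.

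Among the AMPA receptor partners of the TARPs, 6 of 7 were higher and 0 were lower, with a median log2 fold change of 1.28. The receptor subunit genes *Gria3* (2.94, SE 0.06), *Gria2* (1.72, SE 0.10) and *Gria1* (0.99, SE 0.11) rose on the log2 scale, as did the auxiliary subunit genes *Cnih3* (2.79, SE 0.11) and *Cnih2* (1.28, SE 0.04) and the scaffold gene *Dlg4* (1.09, SE 0.04). *Gria4*, a subunit with a large role in interneurons, averaged 38.7 CPM in the positive and 37.35 CPM in the negative fraction and did not pass the test.

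The sodium leak channel NALCN works in a complex with the large proteins UNC79 and UNC80 and keeps neurons depolarized enough to fire. Its pore gene was lower while those of its partners were higher. *Nalcn* was 14.0, 11.7, 11.96, 16.0 and 9.85 CPM in TdTomato+ and 18.2, 16.9, 22.9, 15.4 and 15.2 CPM in TdTomato− libraries of mice 2 to 6. The groups overlapped, and mouse 5 had the higher value in TdTomato+ cells (log2 fold change −0.48, SE 0.13, edgeR adjusted p = 0.00630). Without mice 3 and 4 the fall was 0.31 on the log2 scale and the adjusted p 0.0502.

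*Unc79*, which holds the complex together, was 180, 179, 188, 166 and 193 CPM in TdTomato+ and 120, 108, 105, 111 and 114 CPM in TdTomato− libraries (log2 fold change 0.70, SE 0.05, edgeR adjusted p = 1.35e-06). *Unc80*, the scaffold that binds UNC79 to the channel, was 14.0, 13.0, 11.8, 14.1 and 7.95 CPM against 5.67, 4.98, 4.29, 4.04 and 3.35 CPM (log2 fold change 1.44, SE 0.11, edgeR adjusted p = 1.85e-06). Neither of the partner genes overlapped between groups. Per kilobase, *Unc79* was 15.2 ± 3.55 times the level of *Nalcn* in TdTomato+ and 6.65 ± 1.17 times in TdTomato− libraries. The complex's further member *Fam155a*, listed with the partners, rose by a log2 fold change of 0.89 (SE 0.07, edgeR adjusted p = 2.13e-06).

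The HCN channels open on hyperpolarization and set resting potential and rhythm. *Hcn3* was 84.7, 61.0, 59.5, 69.3 and 77.3 CPM in TdTomato+ and 48.1, 36.4, 40.6, 42.2 and 45.1 CPM in TdTomato− libraries (log2 fold change 0.72, SE 0.05, edgeR adjusted p = 1.39e-06). The groups did not overlap, though exons of opposite-strand genes cover 17.1% of its exon length. *Hcn4*, the pacemaker channel of the sinus node, rose less, at 66.8, 70.3, 70.0, 69.7 and 59.1 CPM against 46.5, 46.4, 56.2, 50.8 and 50.7 CPM (log2 fold change 0.42, SE 0.06, edgeR adjusted p = 0.000182). *Hcn2*, a channel of thalamic and sensory neurons, was 6.89, 4.25, 3.62, 7.22 and 6.19 CPM against 4.69, 3.73, 4.09, 6.10 and 5.40 CPM and did not pass the test (log2 fold change 0.21, SE 0.12, edgeR adjusted p = 0.149).

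**Figure D4:**
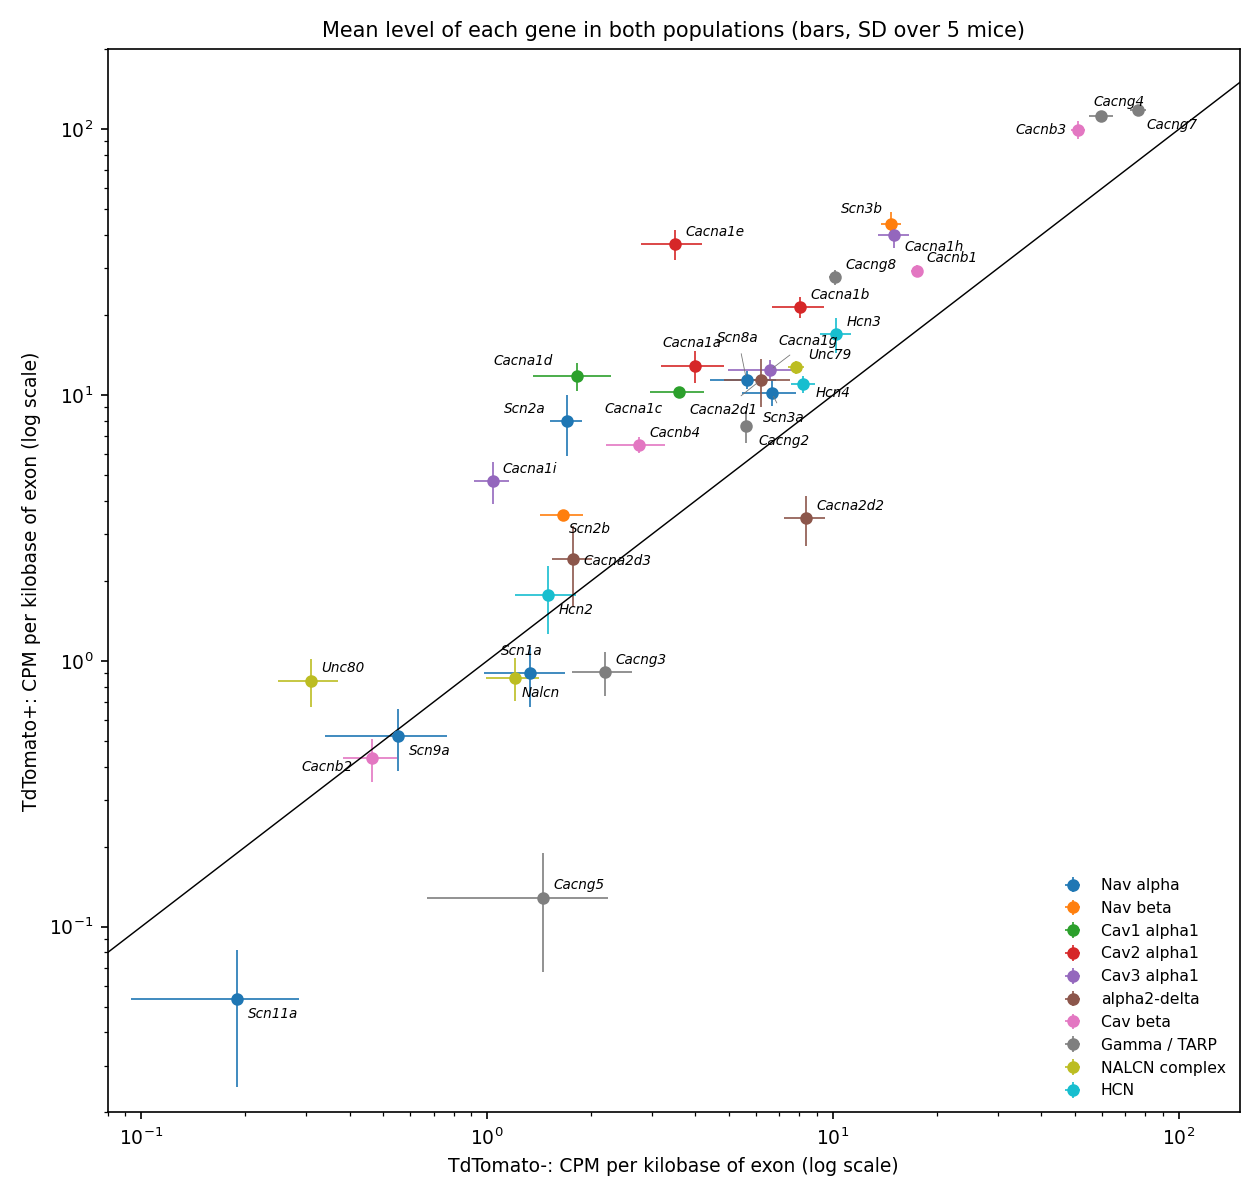
Mean level per kilobase of exon of the channel genes whose values are given here in TdTomato− cells (x axis) and TdTomato+ cells (y axis), in CPM per kilobase on log axes, with bars for the SD over 5 mice, colours for subunit families and a line of equal levels. *Cacng7*, *Cacng4* and *Cacnb3* sit at the top near 100 CPM per kilobase in TdTomato+ cells, and *Cacng5* lies farthest below the line of the genes drawn.

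Ordered by mean level per kilobase in TdTomato+ cells, the channel genes spanned from *Cacng7* at 118 ± 5.68, *Cacng4* at 112 ± 5.42 and *Cacnb3* at 99.6 ± 7.68 CPM per kilobase to *Cacng5* at 0.128 ± 0.0607 and *Scn11a* at 0.0534 ± 0.0286. *Scn3b* (44.1 ± 4.89), *Cacna1h* (40.2 ± 4.39) and *Cacna1e* (36.9 ± 4.75) followed, and each lay within an SD of the next. In TdTomato− cells *Cacna1e* stood at 3.48 ± 0.703 CPM per kilobase, below *Cacna1a* (4.00 ± 0.830), *Cacna1b* (8.05 ± 1.37), *Cacna1g* (6.57 ± 1.59) and *Cacna1h* (15.0 ± 1.57). Without division by exon length its mean there was 87.8 CPM, above *Cacna1b* (80.0), *Cacna1g* (66.6) and *Cacna1a* (45.7) and below *Cacna1h* (147). Summed by family, the ratio of TdTomato+ to TdTomato− levels per kilobase was 3.45 for calcium channel alpha1, 2.99 for sodium channel beta, 1.89 for calcium channel beta, 1.83 for sodium channel alpha, 1.71 for gamma, 1.54 for the NALCN complex, 1.49 for HCN and 1.06 for alpha2-delta genes.

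Proteins that anchor or modulate sodium channels were taken as a list of 16 genes, of which 11 were higher, 1 was lower and 4 did not pass the test, with a median log2 fold change of 0.57. Genes of the axon initial segment and of membrane anchoring rose, with log2 fold changes of 2.16 (SE 0.06) for *Sptbn4*, which encodes betaIV-spectrin, 1.59 (SE 0.05) for *Ank3*, which encodes ankyrin-G, 1.20 (SE 0.04) for *Ank2* and 1.06 (SE 0.04) for the adhesion gene *Nfasc*. The channel-binding factors *Fgf12* (0.44, SE 0.12) and *Fgf14* (0.81, SE 0.12) rose, whereas *Fgf11* (0.00, SE 0.06) and *Fgf13* (0.05, SE 0.05) did not pass the test. *Pacsin2*, a gene of endocytosis, was the fall of the list (−1.22, SE 0.06).

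Of 18 partners of calcium channels 17 are in the table, of which 12 were higher and 5 were lower, with a median log2 fold change of 1.12. Active zone genes were split, with *Rimbp2* (3.44, SE 0.14), *Rims1* (1.37, SE 0.05), *Erc2* (1.23, SE 0.06) and *Erc1* (0.69, SE 0.04) higher and *Rims2* (−1.02, SE 0.05) lower. The vesicle fusion genes *Snap25* (1.84, SE 0.14), *Syt1* (1.59, SE 0.10) and *Stx1a* (1.35, SE 0.05) rose. *Rimbp2*, whose product ties calcium channels to the release site, went from 9.47 ± 1.99 to 103 ± 17.1 CPM. The small G proteins that inhibit calcium channels went the other way, with *Gem* at −4.13 (SE 0.39) and *Rem2* at −2.15 (SE 0.14), and *Akap5* (−0.80, SE 0.09) and *Thbs1* (−2.43, SE 0.34), the gene of an alpha2-delta ligand, also fell. *Gem* averaged 0.230 ± 0.160 CPM with the reporter, where no library exceeded 0.407 CPM. That is below the level of the filter, so its direction among the 5 lower genes had been fixed by the filter, as for *Scn11a*.

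The calcium effectors, 15 genes of the kinase, phosphatase and transcription steps that follow calcium entry, split into 9 higher, 5 lower and 1 that did not pass the test, with a median log2 fold change of 0.54. The kinase genes *Camk2b* (2.67, SE 0.07) and *Camk4* (2.16, SE 0.06) rose while *Camk2a* (−0.91, SE 0.07) and *Camk2d* (−1.63, SE 0.22) fell. The calcineurin genes *Ppp3ca* (0.86, SE 0.05), *Ppp3cb* (0.54, SE 0.08) and *Ppp3r1* (0.32, SE 0.09) rose, and the calcineurin-responsive factors *Nfatc3* (−1.18, SE 0.06) and *Nfatc4* (−2.35, SE 0.08) fell, whereas *Nfatc2* (−0.16, SE 0.11) did not pass the test. Of the remaining list, NALCN and HCN partners, 3 of 4 measured genes were higher and *Pex5l* (−0.35, SE 0.23) did not pass the test.

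**Figure D5:**
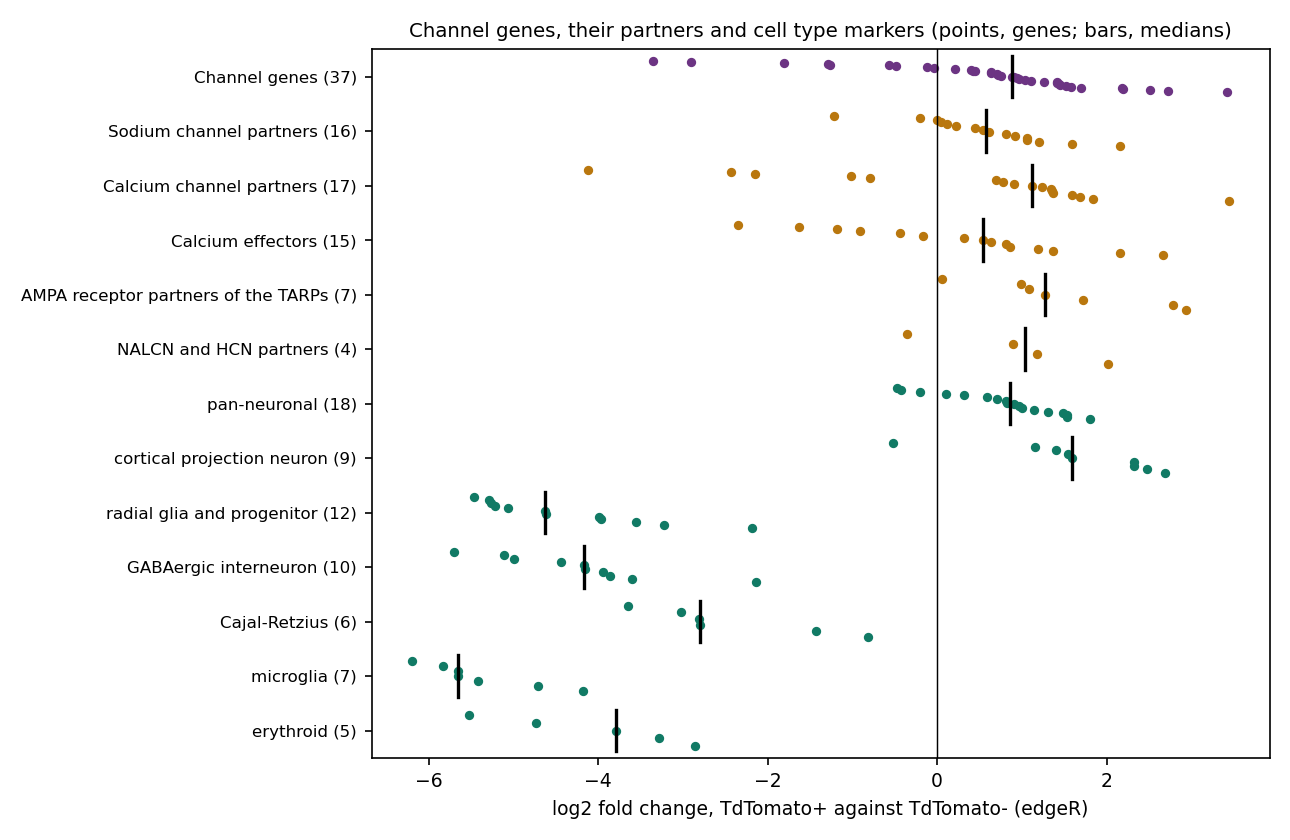
Log2 fold change (x axis) of every gene in the channel set, 5 partner lists and 7 cell type marker lists (y axis, number of genes measured in brackets), with a point for each gene and a black bar for each median. The channel set has its median at 0.88, close to the 0.86 of the pan-neuronal markers, with genes on both sides of 0, whereas all progenitor, GABAergic, Cajal-Retzius, microglia and erythroid markers lie below 0. The filter had fixed the direction of *Scn11a*, of *Gem* among the calcium channel partners and of the microglia markers except *Csf1r*.

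Other marker lists gave the make-up of both fractions. The microglia list had 7 of 8 genes in the table, the erythroid list 5 of 7, the oligodendrocyte precursor list 4 of 5 and the pericyte list 4 of 8. All measured genes of the first 3 lists were lower in TdTomato+ cells, as were 3 of the 4 pericyte genes, and their summed levels in TdTomato− libraries were 15.2 to 68.9, 74.2 to 258, 43.0 to 64.3 and 93.0 to 111 CPM. The microglia markers except *Csf1r*, and *Cspg4* of the oligodendrocyte precursor list, stayed below 0.5 CPM in every TdTomato+ library. The filter had therefore fixed their direction. Endothelial and meningeal lists had 2 of 8 and 2 of 7 genes in the table, with sums of at most 3.62 and 5.29 CPM in any library. The skeletal muscle list had 0 of 6. The striatal list was split, with 3 higher, among them *Drd1* and *Ppp1r1b*, and 6 lower of 9. The direction of *Tac1*, among the lower, was likewise fixed by the filter. *Foxp2* was the projection neuron marker that did not pass the test.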

How the data were processed

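The authors sorted TdTomato+ and TdTomato− cells and sequenced their mRNA in 10 libraries, 5 per group. The labels name a BIOO stranded poly-A kit and HiSeq reads, whereas the methods name a Nugen kit and NextSeq. Per the methods, reads were trimmed with Trim Galore and aligned to GRCm38 with STAR (version 2.4.2a in the submitters' processing notes), which also counted uniquely mapped reads per gene. The annotation release and the strand column are not given in the sources used here. The deposited values are raw counts of 14300 genes, each with more than 0.5 CPM in at least 5 libraries. All 10 libraries were analysed, although the methods mention removal of outliers.

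R 4.3.3 with edgeR 4.0.16 was used to test the counts by its quasi-likelihood method, with TMM scaling and mouse as a block (filterByExpr kept all 14300 genes), with Benjamini-Hochberg adjustment over all genes. The study's thresholds, an adjusted p of 0.05 and an absolute log2 fold change of 2, were used. Mouse numbers in the labels pair the fractions, and deviations from the group means correlated at r = 0.186 to 0.316 between libraries of a mouse and at −0.312 to 0.212 between different mice. Libraries of a group differed by more than counting noise (chi-square per degree of freedom 4.53 to 32.8). The labels do not say whether a mouse number is 1 embryo or a pool. CPM values are counts scaled by the TMM-adjusted library size, and levels per kilobase divide them by the union exon length. Symbols matched the GRCm38 annotation for 14271 genes and 29 did not match. A count of 3 corresponds to 0.104 to 0.136 CPM, which covers counting error only. The script was tested on simulated data.

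Alternatives were DESeq2 1.42.0, other scalings and filters, no block, a test against the fold threshold, and leaving out mice. Full values were given for each family's highest gene per kilobase, its largest called changes in both directions and its uncalled genes. The channel genes and all lists were chosen with earlier results of these data known. Values of some single genes are not reported here, though the counts, sums and medians include them.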

Additional observations from a re-analysis of the deposited data

Results flagged for a closer look

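In 74 groups of 5 libraries (37 channel genes in 2 fractions), the gap between the most extreme library and its nearest neighbour was set against the whole range on the log2 CPM scale. It exceeded Dixon's 95% critical ratio of 0.71 in 6 groups, where chance gives 1 in 20, or 3.7 groups. All 6 concerned mouse 2. *Cacna1b* was highest in mouse 2 in TdTomato+ cells (7.95, others 7.66 to 7.70, ratio 0.854) and in TdTomato− cells (6.70, others 6.16 to 6.30, ratio 0.750). *Cacna1g* was highest in TdTomato+ cells (7.19, others 6.89 to 6.94, ratio 0.840). In TdTomato− cells *Scn8a* (6.93, others 6.27 to 6.40, ratio 0.797) and *Cacna1h* (7.44, others 7.08 to 7.18, ratio 0.731) were highest. *Scn11a* was lowest in TdTomato+ cells (−2.98, others −1.37 to −0.84, ratio 0.751), on a count of 1.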

How the results depend on the processing

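RLE size factors, DESeq2 and no count filter each gave 26 channel genes higher, 7 lower, and 5 and 2 past both thresholds, as did the fit without the mouse as a replicate block, so the pairing changed no such count. Scaling by library totals alone also gave 26 and 7, while it moved the median of all genes by −0.18 and the share of higher among all called genes from 49.1% to 36.6%. Requiring more than 1 CPM left 36 channel genes, 26 higher and 6 lower. A test against the fold threshold itself called 3 rather than 5 higher genes. Leaving out each mouse gave 26 to 27 higher and 7 lower, with 5 higher and 2 to 3 lower past both thresholds. Of 443 values of single genes, 436 kept direction and call. *Scn9a*, which never passed the test, changed sign to 0.01, 0.04 and 0.20 without mice 2, 3 and 4 (the range on leaving out each mouse was −0.26 to 0.20) and to 0.38 (adjusted p = 0.104, edgeR) with mice 2, 5 and 6 only, a setting chosen after seeing the data that gave 27 higher and 6 lower. *Cacna2d3* was called without mouse 4 (0.68) and in mice 2, 5 and 6 (0.79, adjusted p = 1.19e-05), where *Nalcn* lost its call (−0.31). The cause was not tested. Without division by exon length, the shares in TdTomato+ and TdTomato− cells were 41.9% and 16.3% for *Cacna1e*, 17.6% and 27.6% for *Cacna1h*, 29.8% and 36.9% for *Scn3a* and 42.4% and 39.5% for *Scn8a*. Depth limits *Scn11a* and *Cacng5*, with 1 to 16 counts per TdTomato+ library.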
